A study of Mus musculus with 2 samples.

Results

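The genes described here are 41 genes of blood and lymphatic endothelium, out of 43346 Ensembl genes in the deposited tables. They were chosen by symbol from a list of endothelial surface proteins, VEGF and angiopoietin signals, endothelial transcription factors and lymphatic markers. The rule itself uses symbols and not measured values. All 41 were present in both gene tables. Total RNA was sequenced from whole limb of B6NCrl mouse embryos, collected at embryonic day 12.5. The labels give 1 group with 2 biological replicates and no second condition. Replicate 1 pooled limbs from 88 embryos and replicate 2 from 68, with both sexes in each pool, and each library started from 10 ng of RNA longer than 200 nt. No mutant allele, transgene or treatment is named, and forelimb is not separated from hindlimb. This design allows genes to be compared with one another in the limb, and the 2 replicate libraries to be compared.

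Endothelial cells line blood and lymphatic vessels. They respond to VEGF ligands made by the surrounding tissue through receptor tyrosine kinases, and vessel maturation depends on the angiopoietin and Tie system. ETS and SoxF transcription factors set up the endothelial programme, and Prox1 directs part of the venous endothelium to the lymphatic fate. In the limb bud a primitive capillary network is remodelled while the mesenchyme condenses into cartilage, which is itself free of vessels.

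Levels are deposited TPM values, which are scaled by transcript length and so can be compared between genes. A gene counted as detected had at least 1 TPM in both libraries. Of the 41 genes, 40 were detected, against 33.5% of all Ensembl genes and 59.2% of the 21474 protein-coding genes. The one below the threshold was the lymphatic gene Lyve1. The median level of the 41 genes was 11.3 TPM, whereas the median of all detected genes was 18.3 TPM. By mean level, 8 genes lay at 30 TPM or more, 13 between 10 and 30, 17 between 3 and 10, and 3 below 3 TPM. Summed over the list, levels were 698 TPM in replicate 1 and 696 TPM in replicate 2, which corresponded to 0.109% and 0.107% of all counts. Ordered by mean level, 15 of the 40 pairs of neighbours did not overlap between libraries and 25 did. In whole tissue, fewer endothelial cells and less RNA per endothelial cell cannot be told apart.

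**Figure D1:**
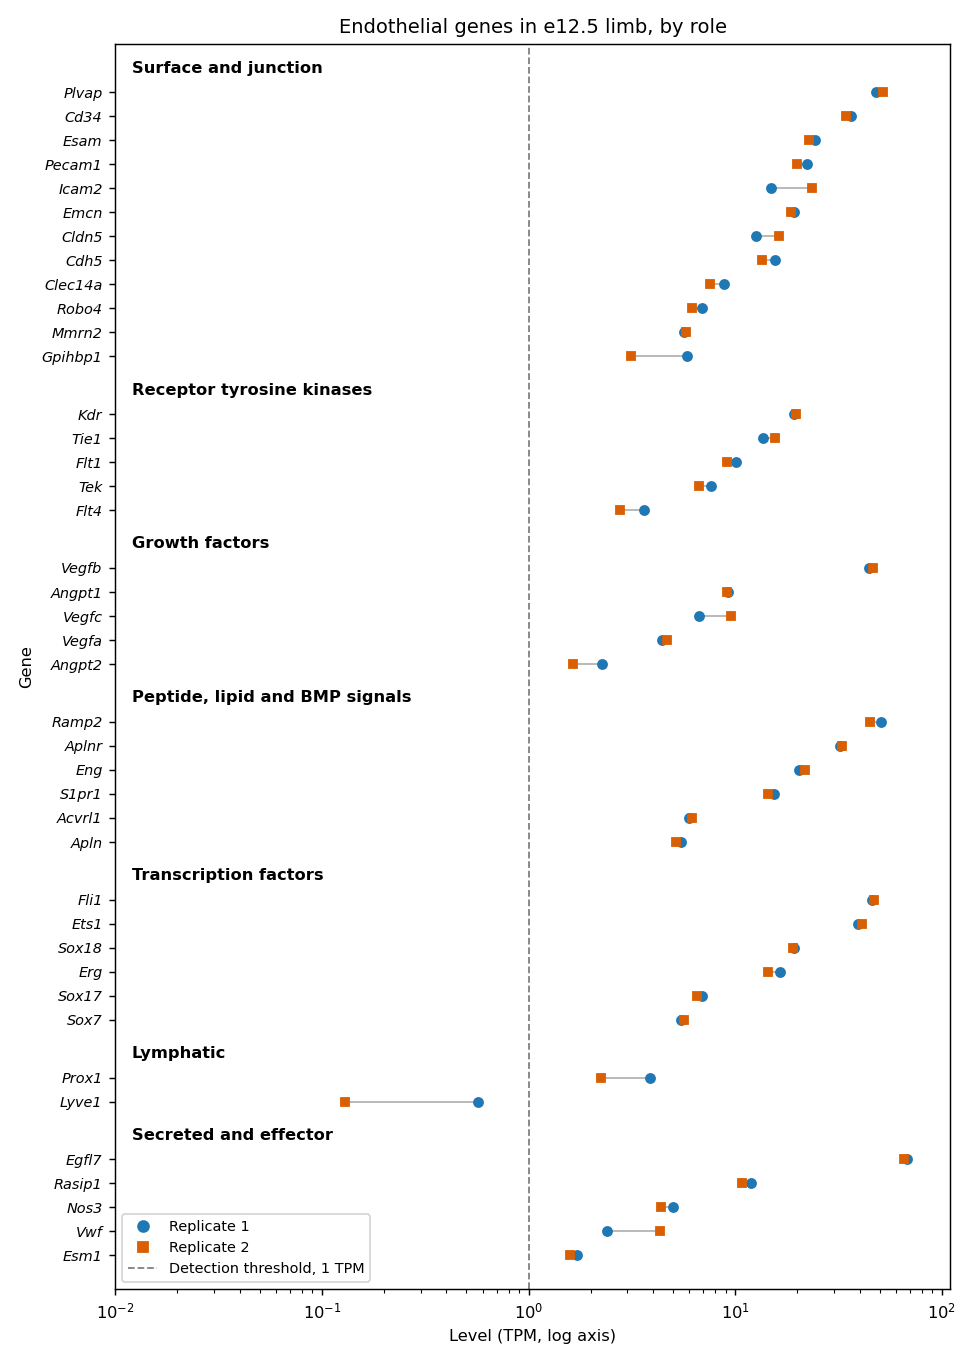
Level of each of the 41 genes in TPM on a log axis, grouped by role, with replicate 1 as circles, replicate 2 as squares and the detection threshold of 1 TPM as a dashed line. Egfl7 has the highest mean level (66.5 TPM), Lyve1 alone lies left of the line, and the widest gaps between replicates are those of Lyve1, Vwf, Gpihbp1, Prox1 and Icam2.

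The places where coding isoforms of the VEGF system part are shown first, because the transcript levels given next count these forms separately. Each stretch is from the GENCODE M21 transcript (GRCm38, minus strand), 5′ to 3′, with the last 30 shared bases in lower case and the bases that follow the branch point in that form in capitals. Where a form only skips bases, its capitals also occur further along in the other form. Flt1 encodes VEGF receptor 1, and its short form reads on past the splice site, which gives a secreted receptor without the membrane and kinase parts (full-length form, chr5:147634434-147639254; short form, chr5:147639135-147639254).
Flt1-202: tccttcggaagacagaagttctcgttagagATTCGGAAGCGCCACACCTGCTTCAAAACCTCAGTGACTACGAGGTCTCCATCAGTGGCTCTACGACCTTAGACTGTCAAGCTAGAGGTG
Flt1-203: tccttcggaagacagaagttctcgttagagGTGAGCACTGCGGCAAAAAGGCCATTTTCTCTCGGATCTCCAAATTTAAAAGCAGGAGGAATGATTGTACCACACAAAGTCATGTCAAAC
Vegfb encodes a ligand of Flt1 and has 2 coding forms that differ by 101 exon bases (chr19:6985507-6985834 and chr19:6985406-6985834).
Vegfb-201: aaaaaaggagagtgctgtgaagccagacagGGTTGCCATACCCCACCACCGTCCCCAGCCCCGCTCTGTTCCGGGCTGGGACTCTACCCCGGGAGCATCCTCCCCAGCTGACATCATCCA
Vegfb-202: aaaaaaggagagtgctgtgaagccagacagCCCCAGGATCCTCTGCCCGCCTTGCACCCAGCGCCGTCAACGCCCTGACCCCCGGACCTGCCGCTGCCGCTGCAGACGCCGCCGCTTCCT
Vegfa, the main ligand of endothelial growth, has a form without, and one with, a 132-base exon that encodes part of the heparin-binding stretch (chr17:46018858-46024094 and chr17:46021033-46024094). The capitals of the first end with its stop codon.
Vegfa-201: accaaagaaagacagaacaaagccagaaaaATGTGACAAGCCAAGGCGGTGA
Vegfa-202: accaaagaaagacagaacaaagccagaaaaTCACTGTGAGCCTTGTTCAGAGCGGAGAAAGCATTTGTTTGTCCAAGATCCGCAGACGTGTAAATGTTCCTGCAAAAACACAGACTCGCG

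Both coding forms of Flt1 were represented. The full-length transcript Flt1-202, which encodes 1333 residues, was at 3.09 TPM in replicate 1 and 3.10 TPM in replicate 2. The short transcript Flt1-203, which encodes 688 residues, was at 2.64 and 2.02 TPM. The short form was thus lower than the full-length form in both libraries and made up 46.1% and 39.5% of the 2 together (42.8 ± 4.68%, SD, n = 2). The most abundant Flt1 transcript, Flt1-201, is annotated as a processed transcript without a coding sequence and was at 4.07 and 4.02 TPM. The 2 coding forms of Vegfb were close to each other: Vegfb-201, of 207 residues, was at 20.8 and 26.0 TPM, and Vegfb-202, of 188 residues, at 21.3 and 18.8 TPM. Their order turned between the libraries. Of Vegfa transcripts, the form without the exon, Vegfa-201 (146 residues), was at 1.24 and 1.60 TPM. The form with it shown above, Vegfa-202 (368 residues), was listed at 0 in both libraries. The 132-base exon alone does not account for the difference in residues between these forms. A longer form that also holds the exon, Vegfa-207 (392 residues), was at 0.46 TPM in replicate 1 and listed at 0 in replicate 2. The posterior mean TPM values, which pull estimates away from 0, put Vegfa-202 at 0.33 and 0.40, Vegfa-207 at 0.50 and 0.21 and Vegfa-201 at 1.18 and 1.49. The highest Vegfa transcript was Vegfa-211 (1.84 and 2.09 TPM), whose length differs between the annotation release that was deposited and the one used here, so its exons were not compared. Only 201 and 220 counts fell on Vegfa, which limits any split between its forms. Cd34, a sialomucin of endothelial and blood progenitor cells, also showed 2 coding forms, Cd34-201 of 382 residues and Cd34-202 of 325 residues. The shorter one took 34.7% and 35.4% of the sum of both, so this split differed little between libraries.

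**Figure D2:**
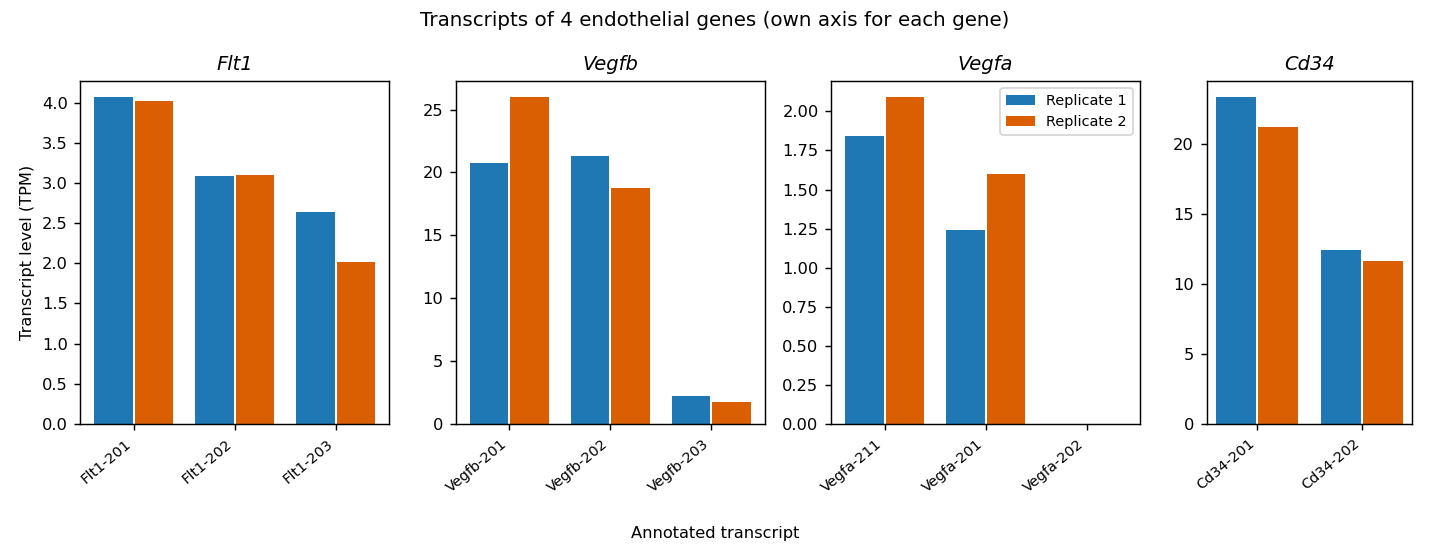
Level in TPM of annotated transcripts of Flt1, Vegfb, Vegfa and Cd34, with 1 bar per library and an axis of its own for each gene. The 3 Flt1 and 2 Cd34 transcripts plotted keep their order in both libraries, the 2 main Vegfb forms change places, and Vegfa-202 is at 0 in both.

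Transcript use was compared for the 20 genes of the list with a mean of at least 5 TPM and at least 2 annotated transcripts. The top transcript by deposited percent was the same in both libraries for 19 and differed for 1, Vegfb, against 7.52% of 7996 such genes. In 2 of the 20, the top transcript was not annotated as protein-coding, against 8.63% of 7733 protein-coding genes. They were Flt1, described above, and Ramp2, in which the retained-intron transcript Ramp2-205 took 41.7% and 32.6% of the gene. Over 20% of TPM fell on transcripts not annotated as protein-coding in both libraries for 6 genes, namely Angpt2, Egfl7, Flt1, Ramp2, Vegfa and Vwf. For Egfl7 that share was 34.9% and 35.3%. A further 14 genes of the list have a single annotated transcript. Such splits are model-based estimates from short reads.

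Surface and junction proteins were the largest group, and all 12 were detected. Plvap, which forms the diaphragms of fenestrated endothelium, led with 48.1 TPM in replicate 1 and 52.1 TPM in replicate 2. Cd34 followed at 36.4 and 34.3 TPM. Esam, an adhesion molecule of endothelial tight junctions, was at 24.5 and 22.6 TPM. These 3 genes did not overlap with one another. Pecam1, an adhesion molecule found on nearly all endothelium, was at 22.2 and 19.9 TPM, and the sialomucin gene Emcn, which is typical of veins and capillaries, at 19.2 and 18.5 TPM. Icam2, an adhesion ligand for leukocytes, was at 14.9 and 23.6 TPM, the widest gap of this group above 10 TPM. Cdh5, the cadherin of endothelial adherens junctions, was at 15.5 and 13.4 TPM. Cldn5, a claudin of endothelial tight junctions, was at 12.6 and 16.4 TPM, so the 2 junction genes overlapped (log2 ratio of Cldn5 to Cdh5 -0.01 ± 0.41). Icam2 and Pecam1 likewise overlapped (-0.17 ± 0.58). Cdh5 lay below Pecam1 in both libraries, by 1.45-fold per unit of length.

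The lower members of this group were between 3 and 9 TPM. Clec14a, a C-type lectin of sprouting endothelium, was at 8.86 and 7.57 TPM, and Mmrn2, an extracellular protein that binds Clec14a, at 5.64 and 5.75 TPM. Mmrn2 was 1.43-fold below Clec14a. Robo4, an endothelial guidance receptor that stabilises vessels, was at 6.93 and 6.17 TPM and 2.19-fold below Cdh5. Gpihbp1, which carries lipoprotein lipase to the capillary lumen, was at 5.84 and 3.14 TPM and 11.4-fold below Plvap.

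All 5 receptor tyrosine kinases were detected, and Flt4 was the lowest of them by gene-level TPM. The full-length Flt1 transcript Flt1-202 alone, at 3.09 and 3.10 TPM, overlapped Flt4. Kdr, which encodes VEGF receptor 2, the main signalling receptor for Vegfa, was at 19.2 and 19.8 TPM. Flt1, whose product binds Vegfa tightly and signals weakly, was at 10.1 and 9.15 TPM, and Flt4, which encodes VEGF receptor 3 for Vegfc, at 3.62 and 2.78 TPM. Kdr was above Flt1 by a log2 ratio of 1.01 ± 0.13 and above Flt4 by 2.58 ± 0.29, with no overlap between libraries in either case. Tek encodes the angiopoietin receptor Tie2 and was at 7.60 and 6.67 TPM. Its partner receptor Tie1, for which angiopoietins are not direct high-affinity ligands, was at 13.6 and 15.5 TPM. Tie1 was above Tek in both libraries, by a log2 ratio of 1.02 ± 0.26.

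The 5 growth factor genes differed widely in level. Vegfb was the highest, at 44.3 and 46.5 TPM. Vegfc, the ligand of lymphatic growth, was at 6.71 and 9.52 TPM, and Vegfa at 4.44 and 4.67 TPM. Vegfa was 9.78-fold below Vegfb and 1.74-fold below Vegfc per unit of length. In replicate 1 the deposited bounds of Vegfa (4.22 to 6.29 TPM) and Vegfc (5.69 to 7.39 TPM) overlapped. In replicate 2 the bounds of these genes did not overlap. Angpt1, the activating Tek ligand usually made by cells around the vessel, was at 9.23 and 9.13 TPM. Angpt2, the context-dependent ligand that endothelial cells release during remodelling, was at 2.27 and 1.64 TPM from only 74 and 71 counts. Angpt1 exceeded Angpt2 by a log2 ratio of 2.19 ± 0.30. These ligand genes are known from cells other than endothelium, so their levels do not measure endothelial RNA alone.

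Among the other signalling genes, all 6 were detected. Ramp2, the subunit that turns the calcitonin receptor-like receptor into an adrenomedullin receptor, was at 50.8 and 45.0 TPM. Aplnr, the apelin receptor of venous and sprouting endothelium, was at 32.0 and 32.7 TPM, and its ligand gene Apln, typical of tip cells, at 5.48 and 5.15 TPM. The receptor was 6-fold above the ligand, and the log2 ratio of 2.58 ± 0.08 varied little. Eng, a co-receptor for BMP9, was at 20.4 and 21.7 TPM, and Acvrl1, the type I receptor of the same complex, at 5.96 and 6.15 TPM, 3.44-fold lower. Acvrl1 was the 1 gene of the list whose TPM lay below its own deposited bounds, which were 6.07 to 9.00 TPM in replicate 1. Its posterior mean of 7.45 TPM in that library lay inside them. S1pr1, the sphingosine phosphate receptor that tightens junctions, was at 15.3 and 14.4 TPM.

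All 6 transcription factor genes were detected. Fli1 was at 45.9 and 46.7 TPM and Ets1 at 39.3 and 40.9 TPM. Both are ETS factors that also act in blood cells and mesenchyme. Erg, the ETS factor most closely tied to mature endothelial identity, was lower, at 16.5 and 14.5 TPM. Fli1 was 2.98-fold and Ets1 2.58-fold above Erg. Of the SoxF factors, which act in arterial and lymphatic specification, Sox18 was the highest at 19.3 and 18.9 TPM. Sox17, linked to arteries, was at 6.87 and 6.56 TPM, and Sox7 at 5.44 and 5.67 TPM. Sox18 was 2.82-fold above Sox17 and 3.40-fold above Sox7, and the TPM values of the 3 SoxF genes did not overlap between libraries. Sox17 and Sox7 differed by only 1.21-fold, and their deposited bounds overlapped in each library.

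The lymphatic group held only 2 genes, Prox1 and Lyve1, and had the lowest median level of any group, 1.71 TPM. Prox1, the regulator of lymphatic fate that is also expressed in other tissues, was at 3.87 and 2.25 TPM. Lyve1, a hyaluronan receptor of lymphatic endothelium and of some macrophages, was at 0.57 and 0.13 TPM. Lyve1 was 7.78-fold below Prox1, while Flt4 and Prox1 overlapped (log2 ratio 0.10 ± 0.27). A longer list of 13 lymphatic genes gave 12 detected, with a higher median of 6.08 TPM and sums of 394 and 381 TPM. It was led by the connexin gene Gja1 (202 and 209 TPM), Nrp2 and Nr2f2, all of which are broadly expressed in limb tissue or mesenchyme. Stab2 was its lowest member (0.14 and 0.15 TPM).

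Secreted and effector genes ranged from the top of the list to near its bottom. Egfl7, which encodes a secreted protein of growing vessels and hosts the endothelial microRNA miR-126, was at 67.6 and 65.4 TPM, above 81.2% of detected genes. Rasip1, a Ras-interacting protein needed for vessel lumens, was at 11.9 and 10.8 TPM. Nos3, the endothelial nitric oxide synthase, was at 4.99 and 4.36 TPM, 3.05-fold below Cdh5. Vwf, a clotting protein that is characteristic of mature endothelium and megakaryocytes, was at 2.39 and 4.32 TPM. The tip cell proteoglycan gene Esm1 was at 1.71 and 1.59 TPM, 11.2-fold below Kdr.

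In all, 33 pairs of genes were compared by the log2 ratio of their levels with 0.1 TPM added to each. The pairs were chosen with earlier results of these data known, so counts over them describe these pairs only. In 30 the ranges over the 2 libraries did not overlap. The other 3 were Cldn5 with Cdh5, Icam2 with Pecam1, and Flt4 with Prox1. With 2 libraries a sign-flip permutation test cannot give a p-value below 0.5, so no test is reported for pairs. Without length scaling, in CPM (counts scaled by library total), 5 pairs turned direction: Ets1 over Fli1, Sox7 over Sox17, Esam over Cdh5, Ramp2 over S1pr1 and Egfl7 over Pecam1. The receptor orders (Kdr over Flt1 and Flt4, Tie1 over Tek) kept their direction on both scales. So did the ligand orders (Vegfb over Vegfc over Vegfa, Angpt1 over Angpt2) and Sox18 over Sox17 and Sox7. The mean log2 ratio of Vegfa to Vegfc was -0.80 in TPM and -0.34 in CPM.

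**Figure D3:**
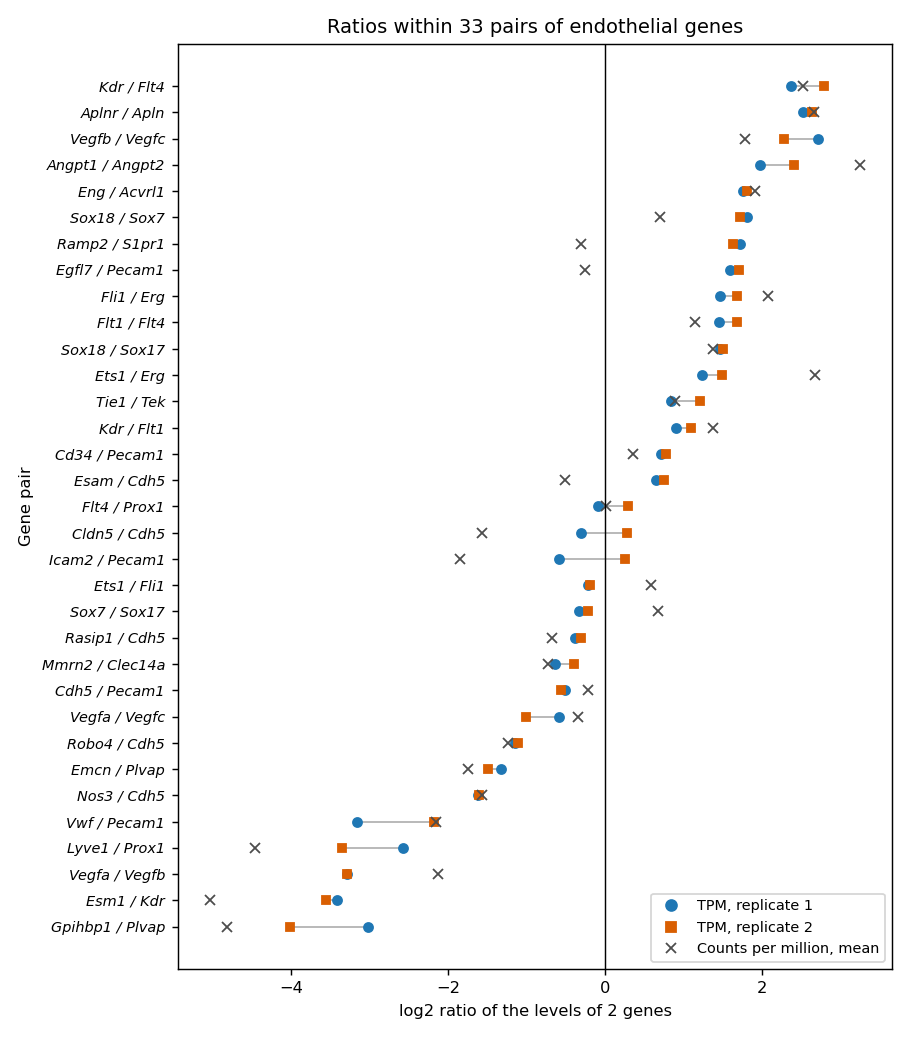
Log2 ratio of the levels of 2 genes for 33 pairs, in TPM for replicate 1 (circles) and replicate 2 (squares), and as the mean in CPM without length scaling (crosses). Kdr to Flt4 and Aplnr to Apln share the highest mean log2 TPM ratio (2.58) and Gpihbp1 to Plvap has the lowest, and 5 crosses lie on the other side of 0 from both TPM points of their pair.

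Each gene was compared between the replicate libraries by an exact binomial test (two-sided, conditional on the sum of its rounded counts), over 18580 genes with at least 10 counts summed. This test compares these 2 libraries and covers counting error only. A call required a fold of at least 2 and a Benjamini-Hochberg adjusted p under 0.05. Lyve1 was called lower in replicate 2, as were 0.818% of all genes, and no gene of the list was called higher, against 1.01%. Lyve1 had 27 counts in replicate 1 and 6 in replicate 2, a 4.52-fold difference with a 95% exact interval of 1.83 to 13.4 (adjusted p = 0.00247, exact binomial test). Prox1 had 507 and 255 counts (adjusted p = 2.8e-18, exact binomial test) and lay just under the 2-fold limit with scaling by library totals. It was called when TMM factors or totals over Ensembl genes alone were used. Both genes of the lymphatic group had fewer counts in replicate 2. In the longer list of 13 lymphatic genes, 9 were lower and 4 higher in replicate 2 by TPM, and none was called. Gpihbp1, with 85 and 44 counts, was 1.94-fold lower (interval 1.33 to 2.86). edgeR's exact test can take its spread only from these same 2 libraries. With gene-wise dispersions, in which the difference of a gene enlarges its own spread, it called 0 genes, so that count says little, and 173 genes and 1 of the list had an unadjusted p under 0.05. With dispersions from the trend over genes of like level it called 79 genes, among them Prox1 (adjusted p = 0.000788, edgeR exact test) and not Lyve1 (adjusted p = 0.532, edgeR exact test).

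Without the fold limit, 7 genes of the list (17.1%) were lower in replicate 2, against 7.95% of all genes, and 5 (12.2%) were higher, against 8.61%. The list had a median of 1132 counts summed over both libraries and all tested genes 882. This test calls smaller differences at higher counts, and the part of depth in these shares was not tested. Lower in replicate 2 were Cdh5, Clec14a, Tek, Gpihbp1, Flt4, Prox1 and Lyve1. Higher were Icam2, Tie1, Cldn5, Vegfc and Vwf. Vegfc had 224 and 320 counts, a 1.42-fold difference (interval 1.20 to 1.69), and Flt4, the gene for its receptor, 417 and 319, a 1.31-fold difference in the other direction (1.13 to 1.52). Cldn5 was 1.30-fold higher (1.12 to 1.51) while Cdh5 was 1.15-fold lower (1.06 to 1.26). The other 29 genes did not pass. For 10 of these 12 genes, all but Tek and Vwf, the deposited TPM bounds did not overlap between the libraries, and those of the other 29 genes of the list did. Bounds did not overlap for 9.64% of the tested genes. Over the list as a whole the libraries differed little: the median log2 ratio of replicate 2 to replicate 1 was -0.06 in TPM over 40 genes, against 0.01 over 15112 genes of at least 1 TPM. The median absolute log2 ratio was 0.11 in both sets. By counts, 26 genes of the list were lower and 15 higher in replicate 2. The same split over all tested genes is not given here, so this count has no background beside it.

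**Figure D4:**
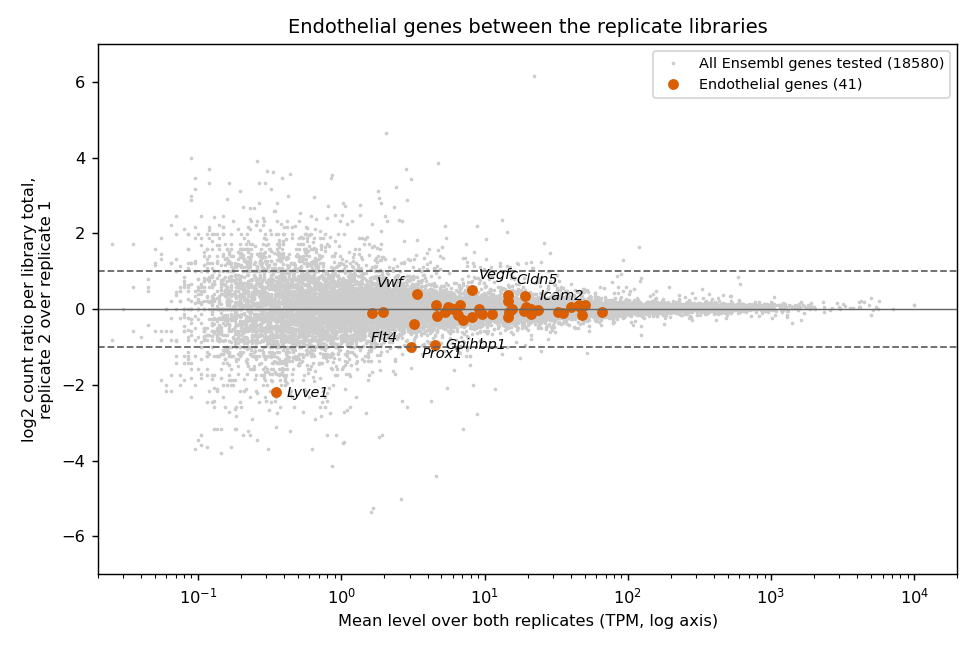
Log2 ratio of counts per library total, replicate 2 over replicate 1, against mean level in TPM on a log axis, for 18580 tested genes (grey) and the 41 endothelial genes (orange), with dashed lines at 2-fold. Lyve1 lies below the lower line, Prox1 and Gpihbp1 lie close to it, and the genes above 20 TPM sit near 0.

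For 3 of 40 genes the TPM ratio and the count ratio between libraries differed by more than 0.25 on the log2 scale, against 3.67% of 14968 genes. They were Icam2, Vwf and Angpt2. Vwf counts were 1.31-fold higher in replicate 2 (interval 1.11 to 1.56), whereas its TPM was higher by a log2 ratio of 0.83. Its 456-nt transcript Vwf-209 took 7.92% of the gene in replicate 1 and 56.0% in replicate 2. In Icam2 the full transcript Icam2-201 took 86.5% and 55.1%, and shorter transcripts took the rest. In Angpt2 the coding transcript took 40.9% and 59.9%. For these 3 genes the estimated transcript mix moved with the TPM, and its part in the difference was not tested.

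Several genes of the list are also known from other cell types, so markers of those cells were read in the same libraries. Macrophage genes were low but all present: 12 of 12 were detected, with sums of 98.9 and 85.3 TPM, C1qb (17.2 and 14.9 TPM), Fcer1g and Tyrobp highest, and Ptprc lowest (1.34 and 1.06 TPM). Of these, 10 were lower in replicate 2, the direction of Lyve1, and their part in the Lyve1 difference was not tested. By TPM, mural genes (10 lower, 2 higher) and erythroid genes (8 lower, 1 higher) leaned the same way. The megakaryocyte and platelet list did not. Megakaryocyte and platelet genes, which bear on Vwf and Cd34, gave 9 of 12 detected with sums of 78.9 and 77.3 TPM, led by Pf4 (43.0 and 42.0 TPM), Ppbp and Itga2b, with Gp1ba lowest (0.18 and 0.26 TPM). In replicate 2, where Vwf was higher, 7 of the 12 were higher and 5 lower, and their part was not tested. Mural cell genes gave 8 of 14 detected with sums of 249 and 227 TPM, led by Acta2, Pdgfrb and Des, which muscle and mesenchyme also express. Next came Notch3 (19.3 and 17.5 TPM), Mcam (13.6 and 14.3 TPM) and Cspg4 (9.84 and 7.39 TPM). Anpep (7.44 and 4.69 TPM) and Tagln (6.86 and 4.99 TPM) were also detected. Of those not detected, the pericyte gene Rgs5 was at 0.57 and 0.46 TPM and Myh11 at 0.17 in both. Higd1b was listed at 0 in both. Erythroid genes were abundant, with 8 of 9 detected and sums of 8584 and 8554 TPM, nearly all from Hbb-y and Hba-x, ahead of Tfrc. No gene of these lists was called between the libraries.

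Other genes of the same pathways were read from lists set by pathway, and none was called between the libraries. In a further list of endothelial genes all 25 were detected (305 and 283 TPM), led by Ephb4, Nid2 and Ecscr, and down to Exoc3l2 (1.40 and 1.24 TPM). By TPM 20 of the 25 were lower in replicate 2. All 18 further VEGF pathway genes were detected (477 and 462 TPM), with the hypoxia factor gene Hif1a, the signalling enzyme gene Plcg1 and the co-receptor gene Nrp2 highest and Sema3e lowest. Pgf, the other Flt1 ligand gene, was at 11.7 and 12.2 TPM, above Vegfa and below Vegfb. Of the angiopoietin list 7 of 8 were detected, with Angptl2, Angptl4 and Angptl1 highest and Angpt4 lowest (0.21 and 0.09 TPM). Of the BMP, apelin, adrenomedullin and sphingosine phosphate list 14 of 18 were detected, led by S1pr3, Plpp3 and S1pr2. Calcrl, the receptor that Ramp2 serves, was at 10.6 TPM in both libraries, and Gdf2 and Bmp10, which encode the ligands of Acvrl1 and Eng, were listed at 0 in both. Of further endothelial transcription factors 17 of 18 were detected, led by Ets2, Elf2 and Nr2f2, and Etv2, which acts at the start of endothelial specification, was at 0 and 0.06 TPM.

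Genes of arteries and veins were both present. Of 12 arterial genes 11 were detected (154 and 148 TPM), led by Hey1 (36.1 and 35.1 TPM), Efnb2 and Nrp1, and Bmx was lowest (0.48 and 0.20 TPM). All 6 venous genes were detected (341 and 307 TPM), led by Ephb4 (82.1 and 73.3 TPM), Nrp2 and Bmpr1a, with Aplnr the lowest. Efnb2, Ephb4, Nrp1, Nrp2 and Bmpr1a are also expressed outside endothelium. Genes typical of brain, liver or lung endothelium, read as a contrast, gave 6 of 15 detected. The highest were Slc2a1, Vcam1 and Lef1, which other limb cells express as well, and the activation gene Sele was the lowest (0 and 0.11 TPM).

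The 41 genes lie on 18 chromosomes, with 3 pairs closer than 500 kb in the mm10 assembly. Fli1 (chromosome 9, 32422204 to 32542861, minus strand) and Ets1 (chromosome 9, 32636221 to 32757820, plus strand) are 93.4 kb apart and lay close in level, at 46.3 ± 0.622 and 40.1 ± 1.15 TPM. Robo4 (chromosome 9, 37401897 to 37415115) and Esam (chromosome 9, 37528078 to 37538319) are 113 kb apart and differed, at 6.55 ± 0.537 and 23.5 ± 1.29 TPM. Icam2 and Pecam1 on chromosome 11 are 266 kb apart. Exons of 10 genes overlap those of another annotated gene, in 9 cases on the opposite strand. Whether reads were counted by strand is not given here, so reads in such overlaps could not be told apart. The longest overlap is that of Ramp2 with Vps25 on the same strand, over 1103 exon bases, and Vps25 was at 85.4 and 79.2 TPM. The Ramp2 level therefore depends on how reads were divided between the 2 genes. On the opposite strand, Fpgs (27.1 and 26.1 TPM) overlaps Eng over 61 exon bases. Agpat2 (15.2 and 14.4 TPM) overlaps Egfl7 over 64 exon bases, also on the opposite strand. For Prox1 the overlapping antisense gene Prox1os was at 0.40 and 0.30 TPM.

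Promoter windows from RefSeq (GRCm38.p6), from 250 bases before to 50 after a start site, were matched for 20 of the 41 genes. The core motif of ETS factors, GGAAG, was searched on both strands and occurred in 14 of the 20 (70%), against 72.1% of 16503 protein-coding genes with 1 window each. The Sox motif AACAAT occurred in 2 of the 20 (10%), against 9.30%. Among detected protein-coding genes the shares were 75.3% for GGAAG and 5.50% for AACAAT. In the 250 bases before the RefSeq start, Tie1 had the most GGAAG matches (6), followed by Egfl7 (4). Over the whole window Apln equalled Egfl7 with 4. The bases before the RefSeq start are shown with the matches on either strand in capitals, for Tie1 (chr4:118489850-118490099, minus strand) and for Egfl7 (chr2:26580833-26581082, plus strand). These starts are 212 bases (Tie1) and 1069 bases (Egfl7) from those that GENCODE gives, and lie inside the genes. By GENCODE, most of the Tie1 bases and all of the Egfl7 bases shown are thus within the gene.
Tie1: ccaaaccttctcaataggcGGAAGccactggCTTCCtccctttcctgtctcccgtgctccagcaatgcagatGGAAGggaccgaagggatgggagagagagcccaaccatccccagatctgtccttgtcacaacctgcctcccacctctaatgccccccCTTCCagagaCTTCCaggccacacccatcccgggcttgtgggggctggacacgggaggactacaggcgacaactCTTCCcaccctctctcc
Egfl7: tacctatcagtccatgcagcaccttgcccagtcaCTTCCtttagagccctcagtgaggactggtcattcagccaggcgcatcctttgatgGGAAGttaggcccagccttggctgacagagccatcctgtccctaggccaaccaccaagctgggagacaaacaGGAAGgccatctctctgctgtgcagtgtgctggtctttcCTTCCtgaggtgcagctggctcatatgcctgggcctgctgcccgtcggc
A match describes the letters in these windows and is no evidence that a factor binds there.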

How the data were processed

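Gene and transcript tables of 2 replicate libraries of 1 group were used. The genome was mm10 with GENCODE M4, per the text deposited with each sample, whereas no aligner, quantifier or strand setting is given in the sources used here. The deposited expected counts are estimated counts that need not be whole, per the file headers, and summed to 29810026 and 29938721. They were rounded for count tests. The deposited TPM values, posterior mean TPM values and their bounds are scaled by length and library, per the file headers. The deposited FPKM values served only as an alternative for detection. The deposited percent values give each transcript's share of its gene.

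Symbols and coordinates came from GENCODE M21 (GRCm38) by identifier without version, and 42462 of 43346 Ensembl genes matched. Levels are means with SD over the libraries (n = 2). The edgeR quasi-likelihood test needs a second group, so libraries were compared with an exact conditional binomial test with Benjamini-Hochberg adjustment. The alternatives were edgeR's exact test, TMM factors and DESeq2 size factors. The common biological coefficient of variation was 0.0698 over 16488 genes. The libraries were distinct, since their counts over 18580 genes gave a chi-square of 6.21 per degree of freedom. The comparison of the libraries was tested on simulated data for 43346 genes. Where only counting error was simulated, it recovered 100% of 100 genes with a 4-fold change and 98% of 100 genes with a 2.5-fold change. It made 4 false calls. The changed genes were drawn from those with at least 100 counts summed, so recovery at fewer counts, as for Lyve1, was not tested. Where unchanged genes were simulated at a coefficient of variation of 0.1, the binomial test still called 90. Intervals reflect counting error alone and treat every count as separate. Molecular identifiers are not recorded, so copies of the same fragment could not be told apart.

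The genes, lists and pairs were chosen with earlier results of these data known. The text names all 41 genes, the 3 highest and the lowest of every other list, and both genes of every pair. A gene that this rule takes is not reported here. Pgf, Calcrl, Notch3, Mcam, Cspg4, Anpep, Tagln, Rgs5, Myh11, Vps25, Fpgs, Agpat2 and Prox1os were named after their values were seen. Ahsp was not matched and is not analysed here. Versions were Python 3.11.15 (matplotlib 3.10.9, pandas 2.3.3, scipy 1.17.1, numpy 2.4.6), DESeq2 1.42.0 and edgeR 4.0.16 under R 4.3.3.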

Additional observations from a re-analysis of the deposited data

How the results depend on the processing

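The count of detected genes stayed at 40 under every alternative tried except a threshold of 5 TPM (32). The median log2 ratio between libraries over the list ranged from -0.06 to -0.04 under its alternatives. Without length scaling, 5 pair ratios changed sign: Sox7 to Sox17 (0.68), Ets1 to Fli1 (0.59), Esam to Cdh5 (-0.51), Ramp2 to S1pr1 (-0.31) and Egfl7 to Pecam1 (-0.25). The number of genes that differed between the libraries, 339, was 71 with at least 100 counts summed, 3077 without the fold limit, 0 by edgeR's exact test with gene-wise dispersions from the same 2 libraries (173 at an unadjusted p under 0.05) and 79 by the same test with trended dispersions, an alternative added after seeing the data, as were totals over Ensembl genes (343). The other scalings and the filter gave 320 to 341. Lyve1 has 33 counts over both libraries and is not tested where 100 are required. With posterior mean TPM, 11 of 41 levels moved by more than their SD. Leaving out a replicate could not be run for the comparison between libraries or for the separation of pairs, since 1 library would remain. No paired analysis was possible because the labels give only 1 group. Depth limits the values of Lyve1, Esm1, Angpt2 and Gpihbp1, each with 85 counts or fewer per library.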
